A study of Mus musculus with 8 samples.

Results

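The tumour suppressor p53 and 9 of its best known transcriptional targets were followed in left ventricle of mice with an Mst1 transgene and of control mice. The 10 genes were picked by symbol from the deposited gene table, in which each had 1 row: Trp53, Cdkn1a, Mdm2, Phlda3, Zmat3, Ccng1, Sesn1, Sesn2, Trp53inp1 and Eda2r, out of 55385 genes in all. All 10 passed the filter on low counts, and the counts behind them ran from 86 (Sesn2 in WT 4) to 9753 (Ccng1 in WT 2) per library. The data set holds 8 RNA-seq libraries, 4 labelled Mst1-TG and 4 labelled WT. All 8 came from male mice on the C57BL6 background.

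Mst1-TG mice carry an Mst1 transgene under the alpha-myosin heavy chain promoter, which is active in cardiomyocytes, and develop dilated cardiomyopathy. WT mice were littermates without the transgene. The species of the transgene is not given in the sources used here. The design text gives an age of 3 weeks for all animals, while the RNA protocol in the labels gives 3 months, and the files cannot settle which is right. Mst1 is a Hippo pathway kinase whose mouse gene symbol is Stk4. Stk4 stood at 1448.6 to 1747 CPM in Mst1-TG libraries, against 25.2 to 29.6 CPM in WT libraries, in the direction the labels give.

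The protein p53 binds DNA as a tetramer and switches on genes for cell cycle arrest, DNA repair, cell death and metabolic restraint when DNA is damaged or when the cell is otherwise stressed. Its amount is set mainly by how fast the protein is degraded, through the ubiquitin ligase Mdm2, so its mRNA level says little about its activity. In the heart the pathway is known for roles in cardiomyocyte loss, in mitochondrial function and in the withdrawal of cardiomyocytes from the cell cycle after birth.

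Libraries held 21193536 to 23809256 estimated counts. Mitochondrially encoded genes took 13.6% ± 0.676 of the counts in Mst1-TG and 22.9% ± 1.11 in WT (SD, n = 4 each; p = 0.0286 in a two-sided exact permutation test, which cannot give a smaller value with 4 against 4). Scaling by TMM, which assumes that most genes do not change, was therefore used for every level below, and CPM is the usual count of a gene relative to a fixed library size, after that scaling. The median log2 fold change of all genes was 0.01 with TMM and 0.29 when counts were divided by library totals alone. The left ventricular label was checked against markers. Every marker of cardiomyocytes, fibroblasts, endothelium, leukocytes, mural cells, atrial cardiomyocytes, adipocytes, red cells and Schwann cells that was looked for had counts. The 5 cardiomyocyte markers summed to 21145 to 28980 CPM in Mst1-TG and 29187 to 35737 CPM in WT, and the 3 atrial markers to 31.2 to 90.5 CPM in Mst1-TG and 89.7 to 128 CPM in WT. In the edgeR test named in the next paragraph, 21.2% of all genes were called higher and 21.1% lower, 42.3% in either direction. By that test fibroblast markers rose in 6 of 6 cases, with a summed level of 5376 to 7658 CPM in Mst1-TG and 2372 to 3173 CPM in WT. Of the endothelial markers 3 of 5 fell (summed level 1092 to 1588 CPM in Mst1-TG and 1483 to 1868 CPM in WT), of the mural markers 3 of 4 (848 to 1096 CPM in Mst1-TG and 1362 to 1699 CPM in WT), and of the cardiomyocyte and atrial markers 3 of 5 and 3 of 3. None of 6 tested leukocyte markers passed, with sums of 219 to 284 CPM in Mst1-TG and 196 to 280 CPM in WT. In bulk tissue, more cells of a type and more RNA per cell cannot be told apart, and the part of these cell types in the results below was not tested.

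Of the 10 genes, 8 rose in Mst1-TG, 1 fell and 1 did not pass the test (edgeR quasi-likelihood test, adjusted p below 0.05 over all 15314 genes tested). The comparison called 21.2% of all genes higher and 21.1% lower, 42.3% in either direction. The median log2 fold change of the 10 genes was 0.41, beside 0.01 for all genes tested. The rises were unequal. Phlda3 and Eda2r rose more than 2-fold and Zmat3 nearly as much, while Trp53, Cdkn1a, Mdm2, Sesn2 and Trp53inp1 rose by less than 1.5-fold. Ccng1, the most abundant of the 10, fell. Phlda3 and Eda2r were 2 of 10 past 2-fold, beside 5.81% of all genes that were called at least 2-fold higher. The groups did not overlap in 6 of the 10 genes (40.3% of all genes), 5 with Mst1-TG above WT and 1 with Mst1-TG below. Among all genes tested, 20.2% were separated with Mst1-TG above and 20.1% with Mst1-TG below.

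**Figure D1:**
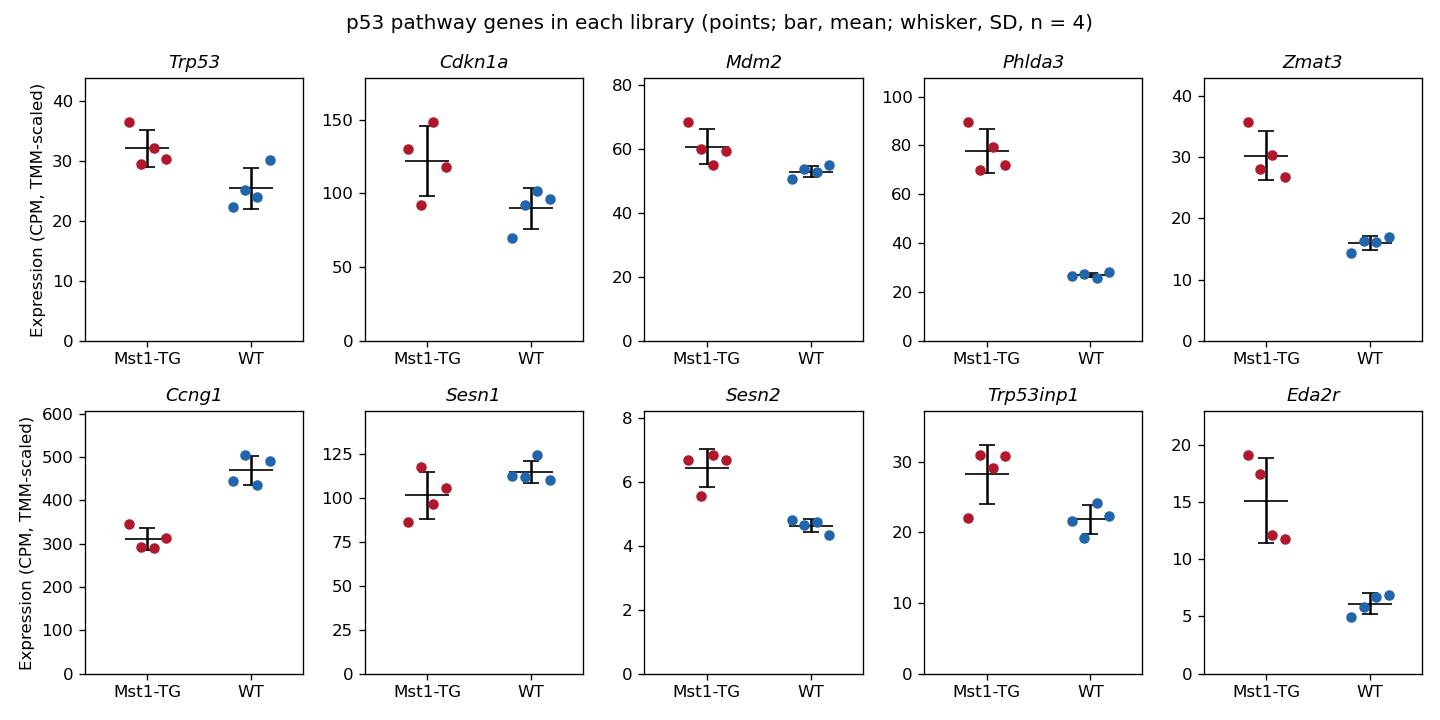
Expression of each p53 pathway gene in every library (vertical axis, CPM after TMM scaling, from 0), with the 4 Mst1-TG libraries in red at the left and the 4 WT libraries in blue at the right of each panel; the horizontal bar is the mean and the whisker the SD. Phlda3, Zmat3, Eda2r, Sesn2 and Mdm2 have all Mst1-TG points above all WT points, Ccng1 has them below, and the other 4 genes overlap.

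The core of the pathway is a loop in which p53 induces Mdm2 and Mdm2 removes p53. Trp53 (ENSMUSG00000059552.13, chr11:69580359-69591873, forward strand, GRCm38) encodes p53 itself. It stood at 36.4, 29.4, 32.1 and 30.3 CPM in Mst1-TG 1 to 4, against 22.3, 25.1, 23.9 and 30.1 CPM in WT 1 to 4. WT 4 reached the range of the Mst1-TG libraries, and the other 3 WT libraries lay below it. The rise was 1.27-fold (log2 fold change 0.34 ± 0.10 SE, edgeR adjusted p = 0.0139). Of the 31-base stretches in annotated Trp53 transcripts, 10.2% also occur in transcripts of other genes, mostly in the pseudogene Trp53-ps, which had 0 counts in every library.

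Mdm2 (ENSMUSG00000020184.15, chr10:117688875-117710758, reverse strand) is the ubiquitin ligase that marks p53 for degradation. It stood at 68.3, 59.7, 55.0 and 59.4 CPM in Mst1-TG libraries, against 50.4, 53.6, 52.6 and 54.7 CPM in WT libraries. The groups just failed to overlap, with 55.0 CPM in Mst1-TG 3 next to 54.7 CPM in WT 4. The rise of 1.15-fold (log2 0.20 ± 0.07 SE, edgeR adjusted p = 0.0387) was the smallest that passed among the 10. It did not pass without any 1 of Mst1-TG 1, Mst1-TG 2, Mst1-TG 4, WT 1, WT 2 or WT 3 (edgeR adjusted p = 0.0519 to 0.113), nor with the replicate number as a block (adjusted p = 0.0651). Over all alternatives tried, the adjusted p of Mdm2 ran from 1.2e-04 with library totals only to 0.885 against a minimum change of 1.2-fold.

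Cdkn1a and Ccng1 are the cell cycle members, and the deposited levels of the pair moved in opposite directions. Cdkn1a (ENSMUSG00000023067.14, chr17:29090976-29100727, forward strand) encodes p21, an inhibitor of cyclin-dependent kinases that carries out the arrest p53 imposes. It stood at 130.0, 92.0, 148 and 118 CPM in Mst1-TG libraries, against 69.5, 91.7, 102 and 96.0 CPM in WT libraries. Mst1-TG 2 lay inside the WT range, and the other 3 Mst1-TG libraries lay above it. The rise was 1.36-fold (log2 0.44 ± 0.15 SE, edgeR adjusted p = 0.0411). It did not pass without any 1 of Mst1-TG 1, Mst1-TG 3, Mst1-TG 4, WT 1, WT 2 or WT 4 (edgeR adjusted p = 0.0632 to 0.108). Over all alternatives tried, the adjusted p of Cdkn1a ran from 0.00411 with library totals only to 0.167 against a minimum change of 1.2-fold. An annotated transcript on the opposite strand shares 273 exonic bases with Cdkn1a, or 7.68% of its exons. That transcript has no row under its gene symbol in the deposited gene table, and the strand setting of the counting is not given in the sources used here. Of the 31-base stretches in annotated Cdkn1a transcripts, 9.78% also occur, on either strand, in transcripts of other genes, mostly in the opposite-strand transcript.

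Ccng1 (ENSMUSG00000020326.7, chr11:40748552-40755311, reverse strand) encodes cyclin G1, a partner of protein phosphatase 2A that acts on Mdm2. It stood at 346, 292, 289 and 314 CPM in Mst1-TG libraries, against 445, 504, 436 and 490.4 CPM in WT libraries. Every Mst1-TG library lay below every WT library. The fall was 1.51-fold (log2 fold change -0.60 ± 0.08 SE, edgeR adjusted p = 4.9e-05), and it passed under all 18 alternatives tried, with log2 fold changes from -0.65 to -0.31. The value nearest 0 came from library totals alone, under which the median gene itself was higher by 0.29.

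The promoters of these genes are shown because Ccng1 and Cdkn1a were the members whose start-site windows held a close match to the p53 response element, a pair of decamers named after p53, and because Phlda3 rose most. RefSeq windows of 300 bases (250 before and 50 after an annotated start, GRCm38.p6) were found for 8 of the 10 genes, 10 windows in all. They were searched for a pair of decamers 0 to 13 bases apart with at most 1 mismatch. The element reads the same on both strands. Capitals mark the matching decamers, and the upstream Cdkn1a window is printed rather than the one at its second start. Zmat3 and Trp53inp1 had no entry.
Ccng1, chr11:40755237-40755536, reverse strand: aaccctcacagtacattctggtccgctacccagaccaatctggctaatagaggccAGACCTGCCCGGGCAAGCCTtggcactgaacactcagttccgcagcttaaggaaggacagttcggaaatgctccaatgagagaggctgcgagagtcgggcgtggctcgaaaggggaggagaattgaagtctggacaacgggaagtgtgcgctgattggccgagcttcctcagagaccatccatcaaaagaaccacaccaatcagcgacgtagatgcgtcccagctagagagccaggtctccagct
Cdkn1a, chr17:29090729-29091028, forward strand: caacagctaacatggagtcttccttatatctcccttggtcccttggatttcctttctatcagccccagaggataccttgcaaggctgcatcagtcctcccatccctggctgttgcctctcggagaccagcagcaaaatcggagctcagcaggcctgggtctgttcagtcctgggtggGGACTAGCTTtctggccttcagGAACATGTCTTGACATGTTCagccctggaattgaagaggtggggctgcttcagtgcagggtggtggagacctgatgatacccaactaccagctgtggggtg
Phlda3, chr1:135765835-135766134, forward strand: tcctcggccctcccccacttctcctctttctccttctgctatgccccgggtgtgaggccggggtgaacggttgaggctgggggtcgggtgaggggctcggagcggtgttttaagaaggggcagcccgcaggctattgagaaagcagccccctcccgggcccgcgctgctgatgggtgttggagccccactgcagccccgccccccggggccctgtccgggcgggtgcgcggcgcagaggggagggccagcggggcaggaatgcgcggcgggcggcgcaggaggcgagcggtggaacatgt

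The Ccng1 match has 1 mismatch and no gap between its decamers. In the Cdkn1a window, GGACTAGCTT and GAACATGTCT match without a mismatch at a distance of 12 bases, and the adjoining pair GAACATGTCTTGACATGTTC, which shares its first decamer with that match, has 1 mismatch. A match with at most 1 mismatch was held by 2 of the 10 windows, beside 0.627% of 32851 promoter windows of this length. The window at the second Cdkn1a start held none, with 5 mismatches in its best pair. Among the genes with a window, the 1 that fell and 1 with a small rise held a match. Phlda3 and Eda2r, which rose most, had none in these windows. The Phlda3 window ends in gaacatgt, the start of the decamer GAACATGTCT found in Cdkn1a. A decamer cut off by the end of a window could not be scored. A match is only a run of letters, and p53 sites outside these windows were not searched.

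Phlda3, Eda2r, Zmat3 and Trp53inp1 act in cell survival, death and RNA control, and the largest rises were among them. Phlda3 (ENSMUSG00000041801.5, chr1:135766119-135769136, forward strand) encodes a small pleckstrin-homology protein that competes with the kinase Akt for membrane lipids and so restrains Akt. It stood at 89.6, 69.9, 79.3 and 72.0 CPM in Mst1-TG libraries, against 26.5, 27.1, 25.8 and 28.1 CPM in WT libraries. The lowest Mst1-TG library held more than double the highest WT library, and the WT libraries lay close together. Phlda3 rose 2.89-fold (log2 1.53 ± 0.08 SE, edgeR adjusted p = 2.8e-08), more than 97.3% of all genes tested. Its transcripts share no 31-base stretch with those of other genes.

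Eda2r (ENSMUSG00000034457.10, chrX:97333840-97377216, reverse strand) encodes a receptor of the tumour necrosis factor family for the A2 form of ectodysplasin. It stood at 19.1, 17.4, 12.1 and 11.8 CPM in Mst1-TG libraries, against 4.91, 5.84, 6.71 and 6.90 CPM in WT libraries. Mst1-TG 1 and Mst1-TG 2 lay apart from the other 2 Mst1-TG libraries, and all 4 lay above WT. The rise was 2.48-fold (log2 1.31 ± 0.18 SE, edgeR adjusted p = 6.3e-05). Per gene, the spread among Mst1-TG libraries was wide, at 15.1 ± 3.70 CPM, beside 6.09 ± 0.912 CPM in WT (SD, n = 4 each).

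Zmat3 (ENSMUSG00000027663.12, chr3:32334792-32366014, reverse strand) encodes a zinc-finger protein that binds RNA and affects splicing and mRNA stability. It stood at 35.8, 28.2, 30.5 and 26.7 CPM in Mst1-TG libraries, against 14.3, 16.3, 16.1 and 17.0 CPM in WT libraries. The groups were well separated, and Mst1-TG 1 was the highest. The rise was 1.90-fold (log2 0.93 ± 0.10 SE, edgeR adjusted p = 5.8e-06). Phlda3, Zmat3 and Eda2r passed under all 18 alternatives tried, including a test against a minimum change of 1.2-fold, which none of the other 5 that rose passed.

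Trp53inp1 (ENSMUSG00000028211.11, chr4:11156431-11174379, forward strand) encodes a stress protein that promotes p53 phosphorylation and takes part in autophagy. It stood at 22.0, 31.0, 29.1 and 30.8 CPM in Mst1-TG libraries, against 21.7, 19.2, 24.2 and 22.4 CPM in WT libraries. Mst1-TG 1, the highest library for Phlda3, Eda2r and Zmat3, was here the lowest of its group and inside the WT range. The rise was 1.29-fold (log2 0.37 ± 0.11 SE, edgeR adjusted p = 0.0167). It did not pass without Mst1-TG 4 (edgeR adjusted p = 0.0548) or without WT 2 (edgeR adjusted p = 0.0559). Over all alternatives tried the adjusted p ran from 2.9e-04 to 0.195, the latter against a minimum change of 1.2-fold.

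Sestrins bind the GATOR2 complex and restrain the growth kinase mTORC1 when leucine is scarce or the cell is stressed. Besides p53, Sesn2 is known to be induced by the stress factor ATF4 and Sesn1 by FOXO factors. Sesn2 (ENSMUSG00000028893.8, chr4:132492032-132510501, reverse strand) stood at 6.69, 5.57, 6.85 and 6.69 CPM in Mst1-TG libraries, against 4.82, 4.65, 4.76 and 4.33 CPM in WT libraries. Its rise was 1.39-fold with no overlap (log2 0.47 ± 0.12 SE, edgeR adjusted p = 0.00749), on 86 to 168 counts per library. Sesn1 (ENSMUSG00000038332.13, chr10:41809935-41908424, forward strand) stood at 85.9, 118, 96.2 and 106 CPM in Mst1-TG libraries, against 112, 112, 124 and 109.9 CPM in WT libraries. Mst1-TG 2 lay inside the WT range and the other 3 Mst1-TG libraries below it. Sesn1 did not pass (log2 -0.18 ± 0.09 SE, edgeR adjusted p = 0.124). Its log2 value was 0.11 when scaled by library totals only. Without Mst1-TG 2 it was called lower (log2 -0.26, adjusted p = 0.0189; 0.0189 to 0.904 over all alternatives tried).

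**Figure D2:**
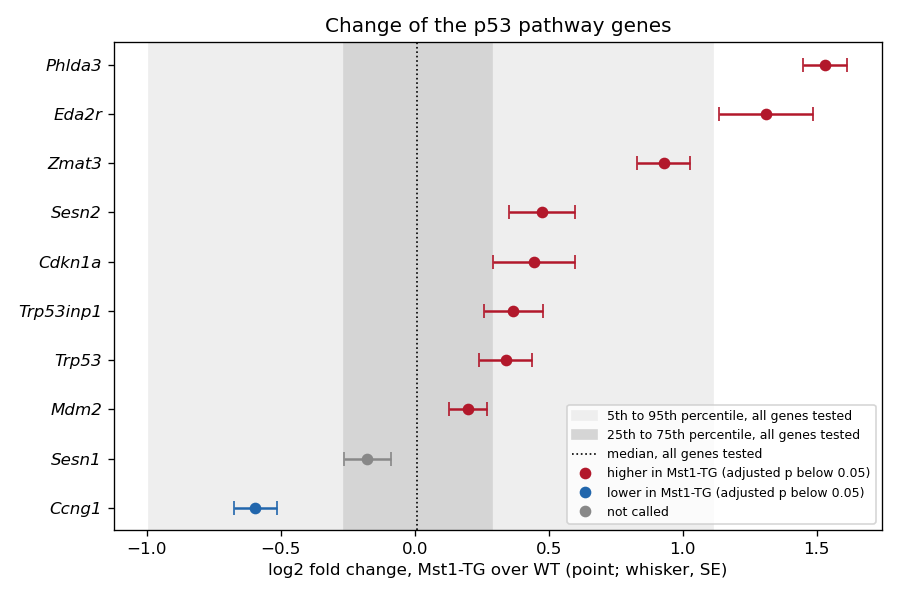
Log2 fold change of each p53 pathway gene, Mst1-TG over WT (horizontal axis; point, estimate; whisker, SE), over grey bands that hold the middle of all 15314 genes tested (25th to 75th percentile, -0.27 to 0.29, dark; 5th to 95th, -0.99 to 1.11, light). Phlda3 (1.53) and Eda2r (1.31) lie beyond the light band, Zmat3 (0.93) inside it near its upper edge, and Ccng1 (-0.60) on the other side of 0.

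Levels can be compared between genes only per length. Per kilobase of annotated exon, Ccng1 was the most abundant of the 10 in both groups, at 88.4 ± 7.45 CPM in Mst1-TG and 133.5 ± 9.50 CPM in WT (SD, n = 4 each). Phlda3 was second in Mst1-TG (49.8 ± 5.70 CPM per kilobase), while in WT it lay below Sesn1 and Cdkn1a (17.2 ± 0.624 CPM per kilobase). Cdkn1a (34.3 ± 6.65 in Mst1-TG and 25.2 ± 3.95 in WT) and Sesn1 (25.4 ± 3.39 in Mst1-TG and 28.8 ± 1.64 in WT) were neighbours in both groups, and their libraries overlapped. Mdm2, Trp53 and Trp53inp1 came next in both groups (after Phlda3 in WT), and none of these 3 overlapped its neighbours in the order. Mdm2 stood at 11.9 ± 1.09 CPM per kilobase in Mst1-TG and 10.4 ± 0.359 in WT.

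The lowest levels per kilobase were those of Zmat3, Eda2r and Sesn2. Zmat3 had 2.65 ± 0.349 CPM per kilobase in Mst1-TG and 1.39 ± 0.0996 in WT. Eda2r had 2.57 ± 0.628 CPM per kilobase in Mst1-TG and 1.03 ± 0.155 in WT (SD, n = 4 each). In Mst1-TG, Eda2r overlapped Zmat3 and lay above Sesn2, whereas in WT it was the lowest of the 10. Dividing by the mean length of annotated transcripts instead put Cdkn1a above Phlda3 and Eda2r above Zmat3 in Mst1-TG. In WT it put Cdkn1a above Sesn1, Mdm2 above Phlda3 and Eda2r above Sesn2. Those places therefore depend on which length is used.

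**Figure D3:**
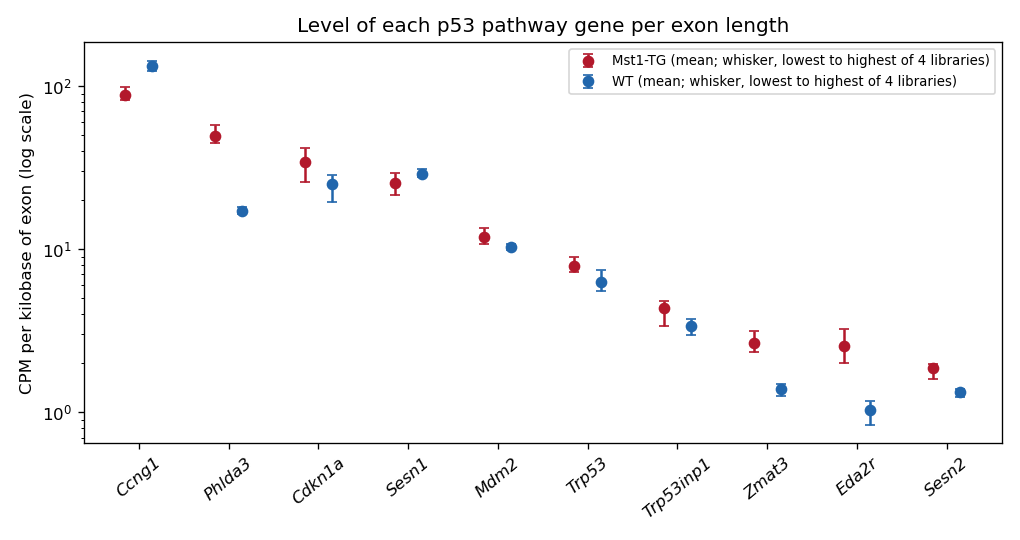
Level of each p53 pathway gene per kilobase of annotated exon (vertical axis, CPM per kilobase, log scale), Mst1-TG in red and WT in blue; points are means and whiskers run from the lowest to the highest of 4 libraries. Ccng1 is highest in both groups and lower in Mst1-TG, while Phlda3 is 49.8 in Mst1-TG and 17.2 in WT.

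The libraries of a group did not hold the 10 genes in one order. Mst1-TG 1 was the highest of its group in 6 of the 10 genes and the lowest in 2. WT 4 was the highest of its group in 5 and WT 1 the lowest in 5. Mst1-TG 1 also had the most RNA of 16 genes of S phase and mitosis (96.6 CPM summed, beside 53.2 to 63.3 CPM in the other Mst1-TG libraries), and so had WT 4 (62.5 CPM, beside 30.8 to 40.7 CPM in the other WT libraries). The fibroblast markers of Mst1-TG 1 summed to 7658 CPM, beside 5376 to 6511 CPM in the other Mst1-TG libraries. The 3 adipocyte markers, all at low levels, were also highest in Mst1-TG 1 and WT 4. Adipoq stood at 1.86 CPM in Mst1-TG 1 and 2.02 CPM in WT 4, beside 0 to 0.408 CPM in the other libraries. Cfd stood at 5.11 and 9.42 CPM in these libraries, beside 0 to 2.36 CPM in the others. The part of fat tissue in their values was not tested. Without Mst1-TG 1, 6 of the 10 genes were called higher, and without WT 4, 7. Without Mst1-TG 4 or without WT 2 only 5 were. Of the genes with a mean log2 CPM of at least 1, those whose log2 CPM followed that of Cdkn1a most closely over the 8 libraries were Ccnd3 (Pearson r = 0.98), Ms4a6c (0.96) and Capza1 (0.96). These values are a description over 8 points that share the difference between groups.

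Other genes known as direct p53 targets did not move one way. In 5 lists with 44 genes, of which 43 were tested, 12 rose and 9 fell (21.2% and 21.1% of all genes), with a median log2 fold change of 0.14. With library totals only the split was 26 higher and 4 lower. Of 10 targets in the death pathway, 4 rose and 2 fell (7 and 0 with library totals only), with a median of 0.35. The pore-forming Bax stood at 36.8 ± 3.80 CPM in Mst1-TG and 28.5 ± 3.59 CPM in WT (SD, n = 4 each; log2 0.37 ± 0.10 SE, edgeR adjusted p = 0.0082). Bbc3, which encodes the BH3-only protein PUMA, rose by 0.42 ± 0.11 and the death receptor Tnfrsf10b by 0.59 ± 0.16 on the log2 scale (adjusted p = 0.00706 and 0.00882). The death receptor Fas changed by -0.52 ± 0.15 (adjusted p = 0.0118) and Ei24, a membrane protein of the endoplasmic reticulum, by -0.20 ± 0.05 (adjusted p = 0.00823).

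Targets in cell cycle control rose in 3 of 9 tested cases and none fell, beside 21.2% and 21.1% of all genes. The counts were 8 and 0 with library totals only, and 5 rose without WT 4. Plk2, a polo-like kinase, stood at 89.4 ± 6.06 CPM in Mst1-TG and 62.1 ± 11.4 CPM in WT. Psrc1 and Ckap2, both proteins of the mitotic spindle, rose by 2.03 ± 0.31 and 1.45 ± 0.41 from low levels (1.57 and 2.23 CPM in Mst1-TG, 0.384 and 0.821 CPM in WT). Gtse1 did not pass (1.06 ± 0.42, edgeR adjusted p = 0.0574). None of 6 DNA repair and nucleotide supply targets passed in edgeR at an adjusted p below 0.05, 0 had an unadjusted p below 0.05, and DESeq2 and limma-voom also called 0, with log2 fold changes of -0.15 to 0.14. With library totals only, 4 of these 6 were called higher.

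Of 11 targets in metabolism, 5 fell and 2 rose, beside 21.1% and 21.2% of all genes. Their median was -0.37, and library totals only gave 3 lower and 2 higher. Aldh4a1, a mitochondrial enzyme of proline breakdown, stood at 39.8 ± 4.88 CPM in Mst1-TG and 90.9 ± 2.44 CPM in WT (log2 -1.19 ± 0.08 SE, edgeR adjusted p = 1.5e-07). Lpin1, a phosphatidate phosphatase, changed by -1.19 ± 0.12 and the adenylate kinase Ak1 by -0.73 ± 0.07. Gpx1, a glutathione peroxidase, rose by 0.50 ± 0.09 (edgeR adjusted p = 3.9e-04). Spata18 rose by 1.68 ± 0.40 (edgeR adjusted p = 0.00391) from a low level, 0.994 CPM in Mst1-TG and 0.303 CPM in WT. The mitochondrially encoded share of counts moved with the groups in the same libraries, as given above, and its part in these values was not tested.

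The list of secreted and membrane targets also holds the ribosomal protein gene Rps27l, which did not pass, and the lipase gene Abhd4. Of its 7 genes, 3 rose and 2 fell, beside 21.2% and 21.1% of all genes. The counts were 5 and 1 with library totals only, and 1 fell without Mst1-TG 3 or without WT 1. The lipase Abhd4 rose by 0.45 ± 0.06 and the tetraspanin Cd82 by 0.58 ± 0.12 on the log2 scale, while the phosphatase Ptp4a3 changed by -0.77 ± 0.09 (edgeR adjusted p = 5.8e-05, 0.00133 and 9.6e-06). Gdf15, a stress cytokine, stood at 6.57, 4.10, 3.10 and 1.09 CPM in Mst1-TG libraries, against 1.61, 1.91, 2.19 and 1.71 CPM in WT libraries. It did not pass (edgeR adjusted p = 0.0878), and Mst1-TG 4 lay below all WT libraries.

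**Figure D4:**
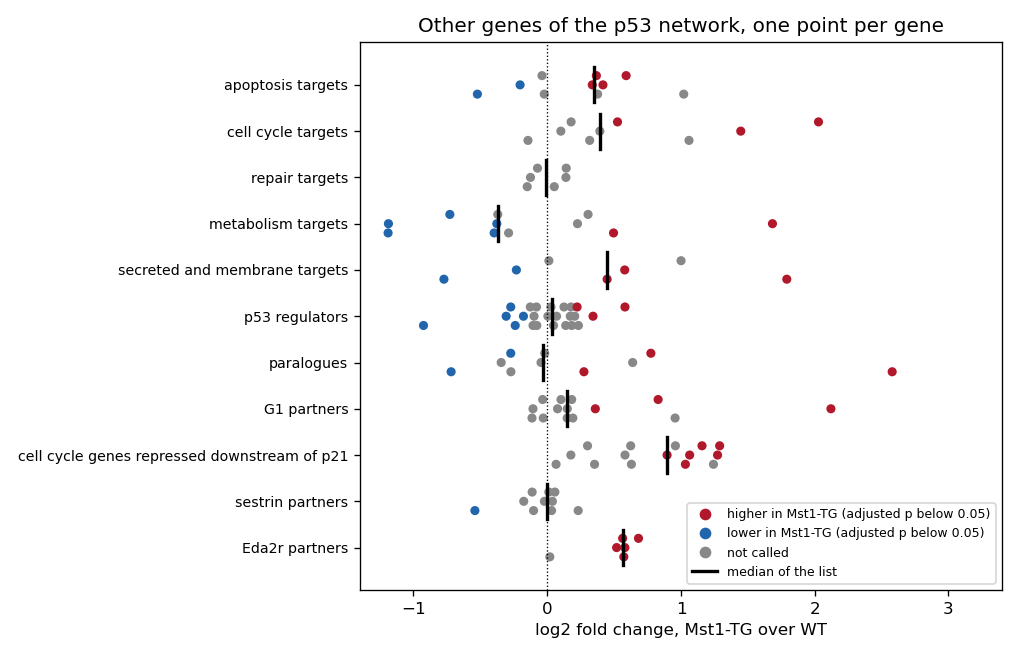
Log2 fold change, Mst1-TG over WT (horizontal axis), of other genes of the p53 network that were tested, one point per gene and one row per list; red points were called higher, blue points lower and grey points neither, and black bars are list medians. The medians of repair targets and sestrin partners are near 0 (-0.01 and -0.00). That of metabolism targets is below 0 (-0.37), with points on both sides, and that of Eda2r partners above it (0.57). With library totals only, 4 repair targets and 5 sestrin partners were called higher.

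Of 24 tested genes that act on p53, 3 rose, 5 fell and 16 did not pass, beside 42.3% of all genes that were called in either direction (15 higher and 1 lower with library totals only), with a median of 0.04. The count that rose was 1 without Mst1-TG 2 or without WT 3, and the count that fell was 3 without Mst1-TG 4, without WT 2 or without WT 3. Hipk2, a kinase that phosphorylates p53, stood at 103 ± 8.41 CPM in Mst1-TG and 68.6 ± 5.56 CPM in WT (log2 0.58 ± 0.08 SE, edgeR adjusted p = 4.1e-05). The checkpoint kinase Chek2 changed by -0.92 ± 0.17 (adjusted p = 6.6e-04). Mdm4, the relative of Mdm2 that binds p53 without degrading it, changed by -0.27 ± 0.10 (adjusted p = 0.0471), and the groups overlapped. Cdkn2a, which encodes the Mdm2 inhibitor ARF, was too low to test.

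Among relatives of the 10 genes, the third sestrin rose. Sesn3 stood at 41.8 ± 4.74 CPM in Mst1-TG and 24.4 ± 2.26 CPM in WT (SD, n = 4 each; log2 0.78 ± 0.09 SE, edgeR adjusted p = 1.9e-05), so Sesn2 and Sesn3 passed and Sesn1 did not. Ccng2, the relative of Ccng1, stood at 34.2 ± 3.70 CPM in Mst1-TG and 28.3 ± 3.23 CPM in WT (0.27 ± 0.10, adjusted p = 0.0385). Of the other inhibitors of the p21 family, Cdkn1c changed by -0.72 ± 0.15 (adjusted p = 0.0037), and Cdkn1b stood at 59.4 ± 4.26 CPM in Mst1-TG and 61.3 ± 4.89 CPM in WT (-0.05 ± 0.07, adjusted p = 0.657). Mdm4 belongs both to this list and to that of genes acting on p53, and counts among those that fell in each. In all, 3 of 10 tested relatives rose and 2 fell, beside 21.2% and 21.1% of all genes. Library totals only gave 5 and 1, and 1 fell without any 1 of Mst1-TG 3, Mst1-TG 4, WT 2 or WT 3. Of 10 genes that act on mTORC1 in the same route as sestrins, Nprl2 alone passed (-0.54 ± 0.11, edgeR adjusted p = 0.0011), beside 42.3% of all genes. Library totals only gave 5 higher and 1 lower.

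Edar and 5 of 6 partners of Eda2r rose. Edar, the receptor for the A1 form of ectodysplasin, stood at 5.84, 4.92, 5.14 and 4.85 CPM in Mst1-TG libraries, against 0.614, 1.19, 0.666 and 1.01 CPM in WT libraries (log2 2.58 ± 0.22 SE, edgeR adjusted p = 6.9e-07). The shared ligand gene Eda stood at 9.41 ± 0.564 CPM in Mst1-TG and 6.33 ± 0.998 CPM in WT (0.57 ± 0.13, adjusted p = 0.00231). Of 6 genes for the ligand and for NF-kappaB signalling downstream, 5 rose with no overlap between groups (21.2% of all genes rose, and 20.2% were separated with Mst1-TG above). Traf6 did not pass (0.02 ± 0.07, edgeR adjusted p = 0.851). Traf3, an inhibitory adaptor, rose by 0.68 ± 0.10, the kinase gene Map3k14 by 0.56 ± 0.10 and the transcription factor gene Nfkb2 by 0.58 ± 0.09 (adjusted p = 9.2e-05, 4.5e-04 and 2.5e-04). With library totals only, 6 of 6 were called higher.

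Among the cyclins, kinases and inhibitors of the G1 boundary, where p21 acts, 3 of 14 tested genes rose and none fell, beside 21.2% and 21.1% of all genes (11 and 0 with library totals only, and 5 rose without Mst1-TG 2), with a median of 0.15. The D-type cyclin Ccnd2 stood at 208 ± 9.83 CPM in Mst1-TG and 117 ± 4.08 CPM in WT (log2 0.83 ± 0.06 SE, edgeR adjusted p = 2.6e-07), and the inhibitor Cdkn2b at 1.94 ± 0.451 CPM in Mst1-TG and 0.445 ± 0.144 CPM in WT (2.12 ± 0.31, adjusted p = 9.0e-05). Genes of S phase and mitosis rose in 6 of 15 tested cases and none fell (12 and 0 with library totals only), with a median of 0.90. Such genes are known to fall when p53 and p21 arrest the cycle. Whether that route acted here, and in which cells, was not tested. Cdk1, the mitotic kinase, stood at 5.88, 3.11, 3.10 and 3.39 CPM in Mst1-TG libraries, against 0.803, 1.60, 1.47 and 2.47 CPM in WT libraries (1.29 ± 0.31, adjusted p = 0.00534). The proliferation marker Mki67 rose by 1.03 ± 0.29 and Ccnb2 by 1.06 ± 0.30, with overlapping groups. This count rests on single libraries: it was 3 without Mst1-TG 1, 3 without WT 1, 3 without WT 3 and 11 without WT 4.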

How the data were processed

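RNA was measured by sequencing of left ventricle in 8 libraries. Directional libraries were made from 200 ng of RNA after removal of ribosomal RNA, per the labels' protocols. The software named is bcl2fastq 2.19.1.403 and the pseudoaligner kallisto 0.46.0, per the submitters' processing notes. The authors deposited 1 table of estimated counts per gene, whole numbers and not scaled, so rounding changed nothing. Build, annotation and strand setting were not stated. The identifiers of all 10 genes match GENCODE M21 (GRCm38) with their version, which supplied positions and lengths.

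Groups came from sample titles. Whether each library is its own animal is not stated, and p-values then reflect library-to-library spread, which may be technical. All replicate pairs differed by more than counting noise (chi-square over its degrees of freedom, 7.28 to 21.1). Genes were filtered with filterByExpr (minimum count 10, minimum total 15), leaving 15314. Groups were compared in R 4.3.3 with edgeR 4.0.16 (TMM, robust quasi-likelihood F test, Benjamini-Hochberg adjustment over all genes tested, threshold 0.05). Fold changes are Mst1-TG over WT, and SE is the log2 fold change divided by the root of F. The code was tested on simulated data. Alternatives used other scalings, filters, DESeq2 1.42.0, limma 3.58.1, a replicate block, a minimum fold and left-out libraries.

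The 10 genes and the gene lists were chosen with earlier results of these data known. Named genes of each list were up to 4 with the smallest p, plus Mdm4, Sesn3, Ccng2, Cdkn1b, Cdkn1c, Bax, Bbc3 and Gdf15, of which some are not reported here. Fas, Traf6, Cdkn2a and Spata18 were chosen after their values were seen. Lists were described by counts, with no test of a list.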

Additional observations from a re-analysis of the deposited data

Results flagged for a closer look

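Among 112 groups of 4 libraries examined, 11 had a library far from the other 3 (by Dixon's ratio of the gap to the nearest library over the whole range), where chance gives about 1 in 20 such groups. Of the 10 p53 pathway genes this touched 2. Sesn1 stood at 124 CPM in WT 3, beside 109.9 to 112 CPM in the other WT libraries. Sesn2 stood at 5.57 CPM in Mst1-TG 2, beside 6.69 to 6.85 CPM in the other Mst1-TG libraries.

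Among the other targets, Bax stood at 33.8 CPM in WT 3 (26.1 to 27.1 in the others), Tnfrsf10b at 10.4 CPM in Mst1-TG 3 (7.11 to 7.66), Psrc1 at 1.21 CPM in Mst1-TG 2 (1.67 to 1.71), Ckap2 at 3.65 CPM in Mst1-TG 1 (1.63 to 1.88) and Ak1 at 310.0 CPM in Mst1-TG 3 (349 to 355). Among cell cycle genes and partners, Cdk1 stood at 5.88 CPM in Mst1-TG 1 (3.10 to 3.39), Ccnb2 at 1.97 CPM in WT 4 (0.803 to 0.951), Nprl2 at 10.8 CPM in WT 4 (11.9 to 12.1) and Eda at 7.81 CPM in WT 4 (5.67 to 5.99).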

How the results depend on the processing

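Of 180 values (10 genes under 18 alternatives), 158 kept their direction and side of the threshold, 20 lost the call, 1 gained it and 1 changed sign. The 20 lost calls were in Mdm2 (8), Cdkn1a (7), Trp53inp1 (3), Trp53 (1) and Sesn2 (1). The sign change was Sesn1, not called, at 0.11 with library totals only. The count of genes called higher was 8 with RLE, upper-quartile or library-total scaling, DESeq2, limma-voom, either other filter and without the most abundant genes. It was 3 against a minimum change of 1.2-fold, a stricter test by construction, and 5 to 7 without 1 library. The count called lower was 1, and 1 to 2 without 1 library. With the replicate block, 7 of the 10 were called higher and 1 lower (all genes, 3064 higher and 3123 lower, beside 3244 and 3238). Same-numbered libraries did not deviate together (r = -0.14, 0.07, 0.02 and -0.02), and among Mst1-TG libraries Mst1-TG 2 alone correlated best with its own number, so the numbers were not taken to pair animals. Over all genes, library totals only gave 7409 higher and 1592 lower, and the 1.2-fold minimum 1897 and 1925. Counts over the gene lists moved by more than 1.5 times in these cases, besides library totals and left-out libraries, which stand with each list. Against the 1.2-fold minimum, death targets gave 1 higher and 0 lower, metabolism targets 3 lower, the 5 target lists together 4 lower, regulators 1 higher and 1 lower, relatives 1 lower and secreted or membrane targets 1 lower. Upper-quartile scaling gave 5 cell cycle targets and 5 G1 genes higher, and 3 regulators and 1 relative lower. Cell cycle targets called higher numbered 6 without a filter and 1 with the stricter filter, under which 1 metabolism target was higher and 1 relative lower. With limma-voom, and without mitochondrially encoded and the 20 most abundant genes, 1 relative was lower. The median SE of a log2 fold change was 0.111, beside changes of 0.20 in Mdm2 and -0.18 in Sesn1. Where no construction is named, the cause was not tested.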
